A study of Mus musculus with 9 samples.

Results

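The 8 genes described here carry out 2 forms of programmed cell death: the apoptotic initiators Casp8, Casp9 and Casp2 with the caspase-9 activator Apaf1, the executioner caspase Casp6, and the necroptosis genes Ripk1, Ripk3 and Mlkl. They were taken by gene symbol and make up 8 of the 24187 genes measured. Each has 1 entry in both deposited tables, and all 8 passed the filter on low values in every comparison. Their levels come from RNA sequencing of 9 libraries of bone-marrow-derived macrophages, which are phagocytes grown from marrow precursors with macrophage colony-stimulating factor. The cells came from C57BL/6 mice at 8 weeks of age, carried no stated genetic change, and had been differentiated for 6 days in medium with 10 ng/ml of that factor and 10% serum. There were 3 untreated libraries (control), 3 of cells given 500 ng/ml lipopolysaccharide (LPS), a bacterial cell wall component sensed by Toll-like receptor 4, and 3 of cells given the same LPS dose together with 50 µM NCT503. All cultures were kept for 6 h. NCT503 is a small-molecule inhibitor of phosphoglycerate dehydrogenase (PHGDH), the first enzyme of serine synthesis. No library had NCT503 without LPS, so the inhibitor was measured only on top of LPS, and the inhibitor is the only means by which PHGDH was perturbed. The labels do not say whether the 3 libraries of a group came from separate animals or cultures, so the tests measure the spread between these libraries, which may be technical.

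Apoptosis begins when an initiator caspase is activated on a platform: caspase-8 on complexes assembled at death receptors, caspase-9 on the apoptosome that APAF1 forms with cytochrome c released from mitochondria, and caspase-2 on the PIDDosome. The initiators then switch on executioner caspases, which cut many cell proteins. Necroptosis is a lytic death in which RIPK1 or another adaptor activates RIPK3, RIPK3 phosphorylates MLKL, and MLKL breaches the plasma membrane. Caspase-8 restrains necroptosis by cleaving RIPK1 and RIPK3, and macrophages exposed to LPS are known to undergo necroptosis when caspases are blocked. The values here are RNA levels, which do not show caspase cleavage, MLKL phosphorylation or cell death.

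The genes differed in the base composition around their start sites, and 4 promoters are shown because they belong to the gene of the 8 with the largest rise under LPS (Mlkl) and to the 3 genes with the largest falls under NCT503 (Casp8, Casp9, Casp2). Each runs from 250 bases before to 50 bases after the RefSeq start in GRCm38.p6, read 5′ to 3′ on the gene's strand, in lower case with CpG dinucleotides in capitals. The Mlkl promoter is at chr8:111338156-111338455 on the minus strand. That of Casp8 is at chr1:58802252-58802551 on the plus strand, inside the gene span of the deposited files. Casp9 has chr4:141793362-141793661 and Casp2 chr6:42264735-42265034, both on the plus strand.
Mlkl: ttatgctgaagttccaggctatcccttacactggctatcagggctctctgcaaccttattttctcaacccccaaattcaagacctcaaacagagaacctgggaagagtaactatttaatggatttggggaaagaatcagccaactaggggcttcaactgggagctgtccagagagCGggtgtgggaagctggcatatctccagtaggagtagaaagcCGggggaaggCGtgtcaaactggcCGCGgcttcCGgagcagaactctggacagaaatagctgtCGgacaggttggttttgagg
Casp8: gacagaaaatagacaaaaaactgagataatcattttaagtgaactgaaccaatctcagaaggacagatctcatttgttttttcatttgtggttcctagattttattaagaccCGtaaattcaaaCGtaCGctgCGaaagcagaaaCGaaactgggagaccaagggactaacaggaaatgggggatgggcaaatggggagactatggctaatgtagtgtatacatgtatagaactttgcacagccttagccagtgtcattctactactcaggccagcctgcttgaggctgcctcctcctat
Casp9: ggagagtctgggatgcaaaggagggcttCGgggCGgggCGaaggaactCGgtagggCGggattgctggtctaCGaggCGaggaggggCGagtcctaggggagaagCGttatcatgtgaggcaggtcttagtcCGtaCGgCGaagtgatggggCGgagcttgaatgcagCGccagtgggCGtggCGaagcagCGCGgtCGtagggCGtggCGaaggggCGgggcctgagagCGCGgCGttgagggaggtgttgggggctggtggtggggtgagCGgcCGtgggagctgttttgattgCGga
Casp2: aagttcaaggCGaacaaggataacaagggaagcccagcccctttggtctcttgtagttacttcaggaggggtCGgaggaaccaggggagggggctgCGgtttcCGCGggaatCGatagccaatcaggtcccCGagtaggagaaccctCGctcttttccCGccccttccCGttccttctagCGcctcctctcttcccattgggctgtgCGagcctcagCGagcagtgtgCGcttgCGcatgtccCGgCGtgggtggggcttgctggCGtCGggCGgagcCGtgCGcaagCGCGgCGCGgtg
Casp8 had 5 CpG and 42% GC in these 300 bases and Mlkl 7 CpG and 51% GC, against medians of 7 CpG and 52.67% GC over all 32851 promoters in the table. Casp9 had 28 CpG and 66% GC, and Casp2 had 26 CpG and 63.67% GC. Among the others Ripk3 had 10 CpG, Casp6 16 and Apaf1 46, and Ripk1, for which the table lists 2 starts, had 22 and 36. In these windows the 3 genes called higher with LPS thus did not share CpG content. Those of Mlkl and Casp8 had no more CpG than the median promoter, and that of Apaf1 had 46. The Casp8 window is at a start inside the gene span, and the bases around the deposited gene start (58795374) were not examined. Motifs were searched on both strands and were free to overlap each other. The interferon-response motif (GAAA, any 2 bases, GAAA), present in 3.443% of all promoters, was found once, in the promoter of the second Ripk1 start. The same window held the GAS letters TTCNNNGAA (8.298% of all promoters) 2 times. The kappaB letters (GGG, any 5 bases, CC), which 50.79% of all promoters hold, occurred in Casp9, Apaf1, Casp2, Casp6 and the second Ripk1 window, and not in these windows of Mlkl, Casp8, Ripk3 or the first Ripk1 start. Neither the AP-1 letters TGANTCA (7.808%) nor the amino acid response letters TGATGNAA (3.969%) were found in any of the 9 windows. These matches describe letters in a short window and do not show binding.

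Levels are given in normalized reads: the deposited values returned to whole reads and scaled with size factors over all 9 libraries, which held 20295862 to 23599685 reads over the 21434 genes shared by both tables. The macrophage identity of the cells was checked on 8 markers, all detected, whose summed level was 270951 to 347154 in control, 423359 to 473404 with LPS and 204176 to 265681 with LPS and NCT503. Most of the sum was Lyz2. With LPS 4 of the 8 markers rose and 0 fell (median log2 fold change 0.41). Scaled to library totals alone, 2 rose and 4 fell with LPS (median -0.29), as under quantile normalization (median -0.35). With NCT503 relative to LPS 0 rose and 4 fell (Fcgr1, Cd14, Lyz2 and Mertk, median -0.89). Markers of other cells were also present. The summed level of 8 stromal markers was 5542 to 25425 in control (the highest in control 1), 16233 to 35137 with LPS and 16136 to 41342 with NCT503, most of it Col1a1. Of these 8, 5 rose with LPS (median log2 fold change 1.74) and 3 fell with NCT503 relative to LPS (median -0.56). For 9 of 10 listed neutrophil markers the sum was 7540 to 10688, 14719 to 20466 and 3697 to 4684, most of it Csf3r. With LPS 2 of the 9 rose and 3 fell (median log2 fold change -0.04), and all 9 fell with NCT503 relative to LPS (median -2.98). Sums were 3831 to 6431, 1943 to 2473 and 3145 to 5163 for 8 T and natural killer cell markers, nearly all of it Cd4. With LPS 2 of these 8 rose and 2 fell (median log2 fold change 0.27). Cd4 was the one marker of these that rose with NCT503 relative to LPS, and 5 of the 8 fell (median -1.75). The sums were 747 to 890, 962 to 1376 and 313 to 339 for 6 mast cell and basophil markers, which also all fell with NCT503. Dendritic and B cell markers summed to at most 814 and 93 in any library. The part of other cells in the results below was not tested, and in bulk RNA fewer cells of a type and less RNA per cell cannot be told apart. Phgdh, the target of the inhibitor, was at 202, 183 and 234 normalized reads in control, 311, 417 and 595 with LPS and 609, 846 and 701 with LPS and NCT503. An inhibitor of the enzyme need not lower its RNA, so these values do not check the treatment.

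**Figure D1:**
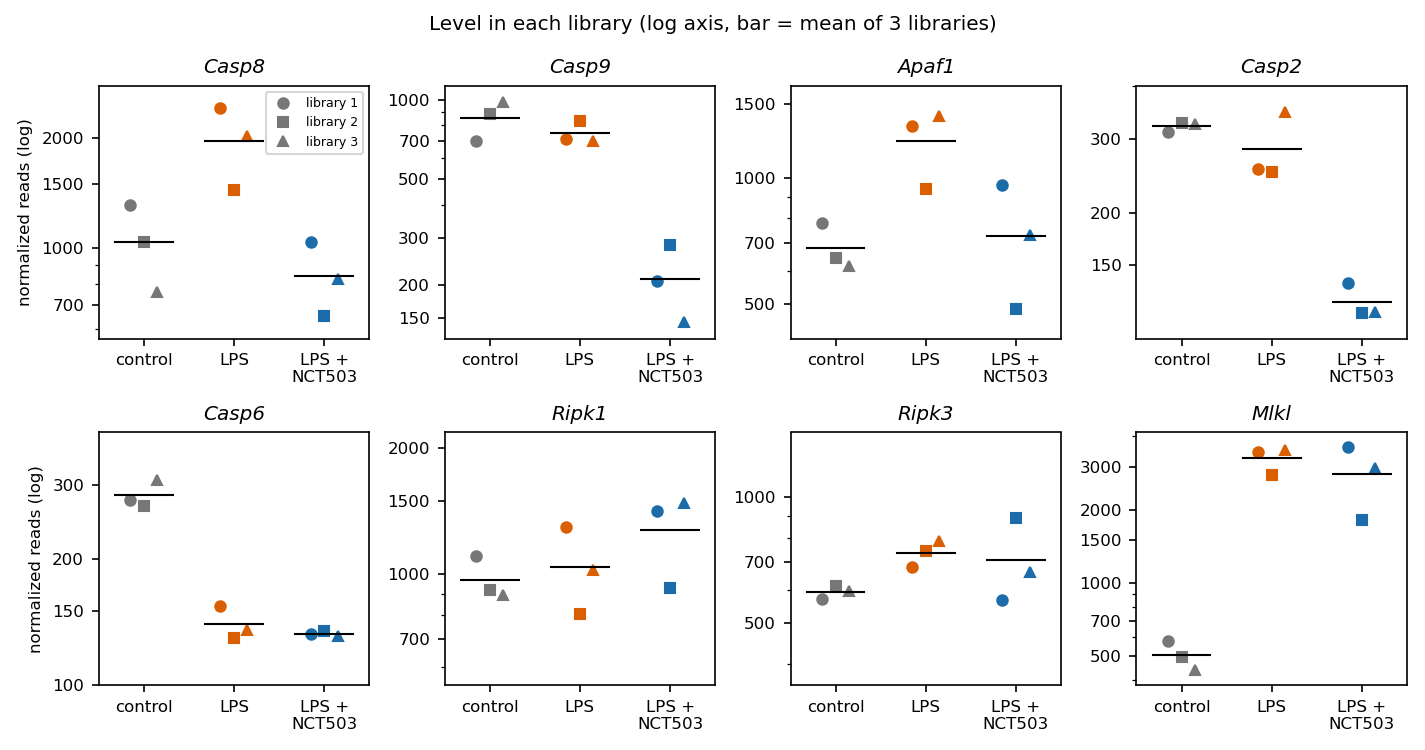
Normalized reads (log axis) of each of the 8 genes in each library of the 3 groups; points are libraries, their shape is the replicate number and the bar is the mean of 3. Mlkl is at 1819.8 or more in all 6 LPS-treated libraries and at 579 or less in control, and Casp9 and Casp2 are lowest in the 3 libraries with NCT503.

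LPS against control asked which of the genes respond to the endotoxin alone. Mlkl, Casp8 and Apaf1 rose and Casp6 fell, while Casp9, Casp2, Ripk1 and Ripk3 did not pass the test. The test was limma-trend on log2(normalized reads + 1) across all genes, with a Benjamini-Hochberg adjusted p under 0.05 as the threshold for a call. By the same rule 20.5% of all 19975 genes tested were higher and 21.4% lower, beside 3 higher and 1 lower of these 8 genes. The groups did not overlap for 5 of the 8, a count that was not set against the share over all genes. The genes' median log2 fold change was 0.20, beside -0.05 over all genes. Scaling to library totals alone (CPM scaling) moved the median of all genes by -0.69 and turned 4089 higher and 4266 lower genes into 2091 and 8535. Under it 1 of the 8 genes (Mlkl) was called higher and 4 (Casp6, Casp2, Casp9 and Ripk3) lower.

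Among the caspases, the death-receptor initiator Casp8 (chr1:58795374-58847503, plus strand, mm10) had 1317, 1041 and 758 normalized reads in the control libraries, 2423, 1448 and 2038 with LPS, and 1042, 650.3 and 821 with LPS and NCT503. Every LPS library was above every control library and above every library with NCT503, while control and NCT503 libraries overlapped. Its mean went from 1038 ± 279 to 1970 ± 491 and then to 838 ± 196 (SD, n = 3 libraries). The rise with LPS was 0.93 ± 0.23 on the log2 scale (SE; limma adjusted p = 0.0067), and it missed the threshold under CPM scaling (0.23, adjusted p = 0.547) and quantile normalization (0.51, adjusted p = 0.134). The fall with NCT503 was 2.34-fold (log2 fold change -1.23 ± 0.23, limma adjusted p = 0.00197).

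Casp9, the initiator of the mitochondrial pathway (chr4:141793612-141815976, plus strand), had 698, 881 and 981 normalized reads in control and 711, 833 and 696 with LPS. With LPS and NCT503 it had 206, 282 and 144. The control and LPS libraries overlapped, and the 3 libraries with NCT503 lay far below both, the highest of them at 282 against 696 for the lowest of the other 6. The means were 853 ± 143, 747 ± 75.2 and 211 ± 69.1. With LPS alone the log2 fold change of -0.18 ± 0.17 did not pass the test (limma adjusted p = 0.425), although under CPM scaling it was -0.88 and did. With NCT503 Casp9 was 3.65-fold lower than with LPS alone (log2 fold change -1.87 ± 0.24, limma adjusted p = 0.00015), the largest change of the 8 genes in that comparison. Exons of Casp9 overlap those of Cela2a and Ctrc on the opposite strand, and the strand setting of the counting is not given in the sources used here, so the Casp9 values are uncertain to that extent. Cela2a and Ctrc were not among the genes shared by both tables.

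Apaf1, the scaffold of the apoptosome (chr10:90989311-91082770, minus strand), had 780, 643 and 615 normalized reads in control, 1326, 941 and 1406 with LPS and 962, 486 and 731 with LPS and NCT503. All LPS libraries exceeded all control libraries, but the first NCT503 library, at 962, lay above the second LPS library, at 941. The rise with LPS was 0.84 ± 0.18 on the log2 scale (limma adjusted p = 0.00312), and 0.14 under CPM scaling (adjusted p = 0.635). The fall with NCT503, 1.72-fold (log2 fold change -0.78 ± 0.26, limma adjusted p = 0.0352), missed the threshold under CPM scaling (-0.54), and when 1 library was left out: without LPS 1 (adjusted p = 0.0967), LPS 3 (0.144), LPS with NCT503 2 (0.0746) or LPS with NCT503 3 (0.0833).

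Casp2, the caspase of the PIDDosome (chr6:42264985-42282508, plus strand), had 312, 328 and 325 normalized reads in control and 255, 249.6 and 347 with LPS. It fell to 136, 115 and 116 with LPS and NCT503. The control and LPS libraries overlapped and all 3 NCT503 libraries were below the rest. LPS alone gave a log2 fold change of -0.19 ± 0.18 that did not pass the test (limma adjusted p = 0.423) but did under CPM scaling, at -0.89. With NCT503 Casp2 was 2.29-fold lower than with LPS alone (log2 fold change -1.19 ± 0.22, limma adjusted p = 0.00145).

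Casp6, an executioner caspase (chr3:129901425-129914103, plus strand), was the only one of the 8 genes called lower with LPS. Its control libraries had 275, 267 and 308 normalized reads, its LPS libraries 154, 129.6 and 135, and its NCT503 libraries 133, 134 and 131. Control lay above the other 6 libraries, which overlapped each other. The log2 fold change with LPS was -1.01 ± 0.18 (limma adjusted p = 0.000684). Between LPS with and without NCT503 it was -0.07 ± 0.21 (limma adjusted p = 0.823), and 0.17 with the sign turned under CPM scaling.

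**Figure D2:**
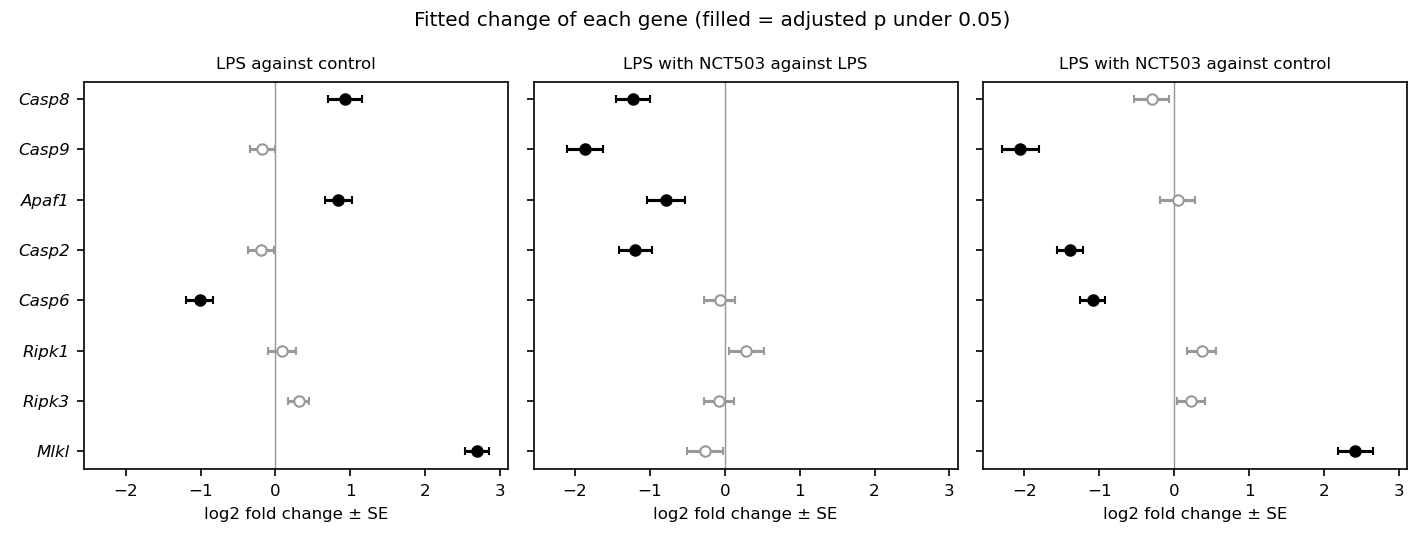
Log2 fold change (x axis, ± SE) of each gene in the 3 comparisons from limma on 3 libraries a group; filled points passed an adjusted p of 0.05. Mlkl has the largest change with LPS (2.69), and Casp9, Casp8 and Casp2 lie below -1 for LPS with NCT503 against LPS.

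Of the necroptosis genes, Mlkl, the membrane executioner (chr8:111311797-111338177, minus strand), changed most. Its control libraries had 579, 496 and 438 normalized reads, its LPS libraries 3455, 2775 and 3517, and its NCT503 libraries 3605, 1819.8 and 2971. All 6 treated libraries were above all control libraries, and the LPS and NCT503 libraries overlapped. The means were 505 ± 70.9, 3249 ± 411 and 2799 ± 905. With LPS it was 6.46-fold higher (log2 fold change 2.69 ± 0.16, limma adjusted p = 1.64e-07). LPS with NCT503 against LPS gave -0.26 ± 0.24 (limma adjusted p = 0.437), and 0.02 without the second NCT503 library.

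Ripk3, the kinase that phosphorylates MLKL (chr14:55784996-55788857, minus strand), had 570.5, 614 and 598 normalized reads in control, 679.7, 745 and 784 with LPS and 569, 893 and 663 with LPS and NCT503. LPS libraries were all above control, and the NCT503 libraries spanned both groups. The difference with LPS, 0.31 ± 0.14 on the log2 scale, did not pass the test (limma adjusted p = 0.102). Under CPM scaling its sign turned, to -0.39 with an adjusted p of 0.0285. LPS with NCT503 against LPS gave -0.08 ± 0.20 (limma adjusted p = 0.794), 0.17 under CPM scaling and 0.07 without the first NCT503 library.

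Ripk1, the kinase and scaffold shared by survival, apoptotic and necroptotic signalling (chr13:34002363-34037147, plus strand), had 1107, 916 and 893 normalized reads in control, 1298, 805 and 1023 with LPS and 1416, 929 and 1476 with LPS and NCT503. The 3 groups overlapped. Neither LPS (log2 fold change 0.08 ± 0.19, limma adjusted p = 0.749, with the opposite sign under TMM scaling at -0.02, CPM scaling at -0.62 and quantile normalization at -0.22) nor NCT503 on top of LPS (0.29 ± 0.23, adjusted p = 0.372) passed the test. Its exons overlap those of Serpinb6a on the opposite strand and of a processed pseudogene, Gm17084, on the same strand, so its values are uncertain without the strand setting. Serpinb6a itself ranged from 3867 to 6097 normalized reads in control, 1691 to 1838 with LPS and 4169 to 4660 with NCT503, a pattern in which LPS is lowest, and its part in the Ripk1 values was not tested.

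Adding NCT503 to LPS asked which of these levels depend on the inhibitor. Casp9, Casp8, Casp2 and Apaf1 fell, no gene of the 8 rose, and the necroptosis genes Ripk1, Ripk3 and Mlkl and the executioner Casp6 did not pass the test. Thus 0 of 8 were called higher and 4 of 8 lower, beside 16.9% and 15.7% of all 19795 genes tested. Groups did not overlap for 3 of the 8 (Casp9, Casp8 and Casp2), and the share over all genes was not counted. The genes' median log2 fold change was -0.52, beside 0.08 over all genes. CPM scaling moved the median of all genes by 0.24 and the calls over all genes from 3351 higher and 3098 lower to 4405 and 2136. Casp9, Casp8 and Casp2 were called lower in each alternative run. In the same comparison all 9 neutrophil and all 6 mast cell and basophil markers fell, as did 4 of 8 macrophage, 5 of 8 T and natural killer cell and 3 of 8 stromal markers, and their part in these falls was not tested.

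Against control, LPS with NCT503 left Mlkl higher (log2 fold change 2.42 ± 0.24, limma adjusted p = 2.26e-05) and put Casp9, Casp2 and Casp6 lower. The values of these 3 were -2.05 ± 0.24 (limma adjusted p = 8.65e-05) for Casp9, -1.39 ± 0.17 (0.000113) for Casp2 and -1.09 ± 0.17 (0.000545) for Casp6. Casp8 at -0.30 ± 0.23 (limma adjusted p = 0.337) and Apaf1 at 0.05 ± 0.24 (0.886) did not pass. Apaf1 had the opposite sign under TMM (-0.03), CPM (-0.40) and quantile scaling (-0.12), and Casp8 was called lower under CPM scaling (-0.75, adjusted p = 0.0435). Ripk1, at 0.37 ± 0.20 (limma adjusted p = 0.172; -0.09 under CPM scaling), was called higher without the second NCT503 library (0.58, adjusted p = 0.00598). Ripk3 stood at 0.23 ± 0.18 (limma adjusted p = 0.358; -0.22 under CPM scaling). In all 1 of 8 was higher and 3 of 8 lower, beside 20.7% and 19.7% of all 19930 genes. Groups did not overlap for 4 of the 8, again with no share over all genes counted. CPM scaling moved the median of all genes by -0.45 and the calls from 4134 higher and 3927 lower to 2448 and 6567. The 3 comparisons share libraries in pairs and are not independent of each other.

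Some libraries were the lowest of their group for several of the genes, and how often they were lowest over all genes was not counted. The third control library was the lowest of its group for 4 of the 8 genes. The second LPS library was the lowest of its group for 6 of the 8 genes, and the second NCT503 library for 5 of the 8 (Casp8, Apaf1, Ripk1, Mlkl and Casp2), while it was the highest of its group for Casp9, Ripk3 and Casp6. The order of the NCT503 libraries rested on small gaps for Casp2 (115.5 in the second against 115.8 in the third) and Casp6 (134.2 in the second against 132.5 in the first). In the authors' deposited tables the adjusted p-values passed 0.05 for the same genes in the first 2 comparisons. The adjusted p in the authors' deposited tables was 5.714e-48 for Mlkl, 6.972e-06 for Casp6, 0.0001247 for Apaf1 and 0.0006012 for Casp8 with LPS, and 5.116e-11 for Casp9, 9.134e-06 for Casp8, 1.204e-05 for Casp2 and 0.01962 for Apaf1 with NCT503.

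Ratios of 2 genes within a library do not depend on the scaling of libraries, and showed how the balance of the genes moved. Mlkl stood to Casp8, the protease that restrains necroptosis, at 0.440, 0.477 and 0.578 in control, 1.43, 1.92 and 1.73 with LPS and 3.46, 2.80 and 3.62 with LPS and NCT503. The 3 groups were fully separate, with means of 0.498 ± 0.0716, 1.69 ± 0.247 and 3.29 ± 0.434. Between LPS and LPS with NCT503, Casp8 fell by the test and Mlkl did not pass it. Apaf1 stood to Casp9 at 1.12, 0.729 and 0.627 in control, 1.87, 1.13 and 2.02 with LPS and 4.67, 1.72 and 5.08 with NCT503. The lowest LPS value of 1.13 lay just above the highest control value of 1.12, and the second NCT503 library, at 1.72, lay below 2 LPS libraries. Ripk3 to Casp8 was 0.433, 0.590 and 0.789 in control, 0.281, 0.514 and 0.385 with LPS and 0.546, 1.37 and 0.808 with NCT503, where the NCT503 libraries were all above the LPS libraries and control overlapped both. The ratios are of reads, not of molecules, because the genes differ in length. They were chosen after the levels were seen and are given with no test.

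**Figure D3:**
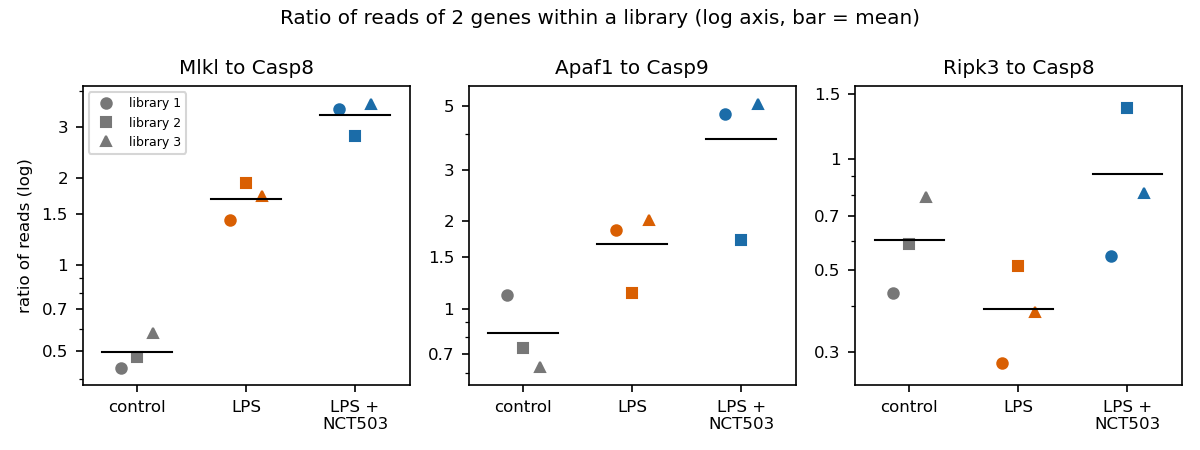
Ratio of the reads of 2 genes in each library (log axis), with the bar at the mean of 3 libraries. Mlkl to Casp8 is at most 0.578 in control and at least 2.80 with LPS and NCT503, with no overlap between the 3 groups, while the second NCT503 library stands apart in Apaf1 to Casp9 (1.72) and Ripk3 to Casp8 (1.37).

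Divided by gene length, the genes can be set in an order. In control the mean per kilobase was highest for Casp8 (359), Ripk3 (302) and Mlkl (219), followed by Casp9 (164), Ripk1 (117), Apaf1 (75.2), Casp6 (50.8) and Casp2 (45.6). Casp8 and Ripk3 did not differ beyond their spread (SD 96.5 and 11.2 per kilobase). With LPS Mlkl led at 1411 ± 179 per kilobase, ahead of Casp8 at 681 ± 170 and Ripk3 at 375 ± 26.9. Casp9 (144), Apaf1 (136) and Ripk1 (125) lay within each other's spread, and Casp2 (40.2) and Casp6 (25.0) came last. With LPS and NCT503 Mlkl stayed first at 1215 ± 393, Ripk3 (361 ± 84.8) and Casp8 (289.6 ± 67.8) lay within each other's spread, and Casp9, at 40.5 ± 13.3, was below Ripk1 (153) and Apaf1 (80.4). Casp6 (23.7) and Casp2 (17.3) were again the lowest. Casp6 was thus among the 2 lowest of the 8 genes per kilobase in every group.

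**Figure D4:**
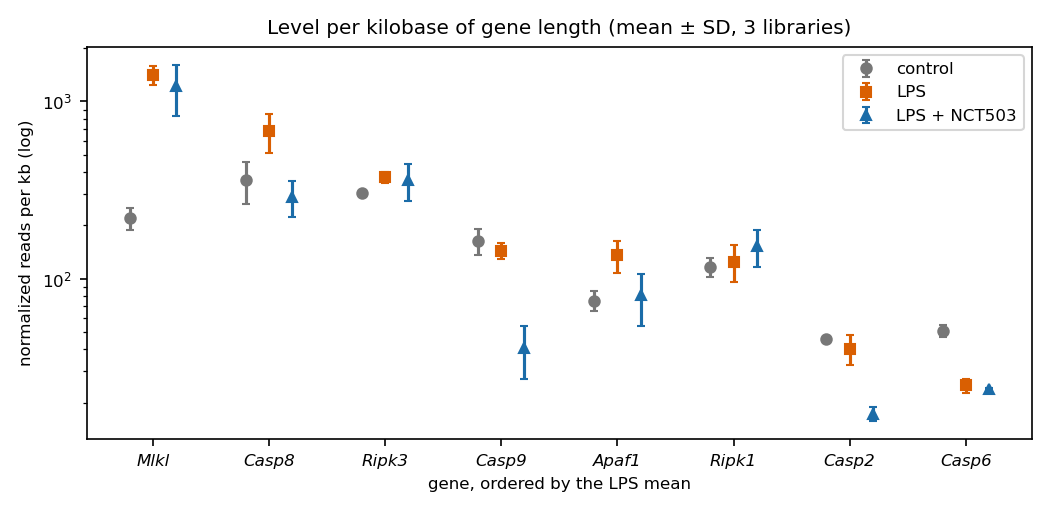
Mean normalized reads per kilobase of gene length (log axis, ± SD of 3 libraries) for the 8 genes, ordered by their mean with LPS. Mlkl leads with LPS (1411) and with LPS and NCT503 (1215), and Casp9 drops from 144 with LPS to 40.5 with NCT503.

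Across the 9 libraries the 8 genes did not share 1 pattern. Pearson's r, given as a description over libraries that share their group structure, was 0.931 for Casp9 with Casp2, 0.920 for Casp8 with Apaf1 and -0.955 for Casp6 with Mlkl, while it was 0.184 for Casp9 with its activator Apaf1 and 0.446 for Ripk3 with its substrate Mlkl. The most alike genes were sought among 9660 whose mean reached 100 normalized reads in any group. These 8 genes and provisional names (such as Gm with digits or Rik) were left out. The most alike were Zfp800 and Creb5 for Mlkl (r = 0.998 for both) and Ifngr1 (0.998) and Galc (0.994) for Casp6. For Casp9 they were Add1 (0.993) and Tcta (0.993), for Casp2 B4galt1 (0.990) and Tspyl1 (0.986), and for Casp8 Pafah1b2 (0.988) and G3bp2 (0.971). Apaf1 was nearest to Trmt1l (0.977) and Tstd2 (0.974), Ripk1 to Sf3b3 (0.977) and Ddx6 (0.969), and Ripk3 to Thg1l (0.968) and Akirin2 (0.913).

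The other genes of these pathways are given from lists, with p-values adjusted over all genes tested. Beside each list's counts stand the shares over all genes, 20.5% higher and 21.4% lower with LPS and 16.9% and 15.7% with NCT503 relative to LPS. These shares hold for the main test only. Under CPM scaling, 2091 genes were higher and 8535 lower of 20314 tested with LPS. With NCT503 relative to LPS these were 4405 and 2136 of 20122, and list counts under CPM scaling stand beside these. Casp1, the inflammasome caspase, rose by 2.30 with LPS and fell with NCT503 (-1.22). Casp4, the caspase that senses intracellular LPS, rose by 3.77. With NCT503 its libraries all lay below those with LPS, and the difference (-0.42 ± 0.20, limma adjusted p = 0.129) did not pass the test.

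**Figure D5:**
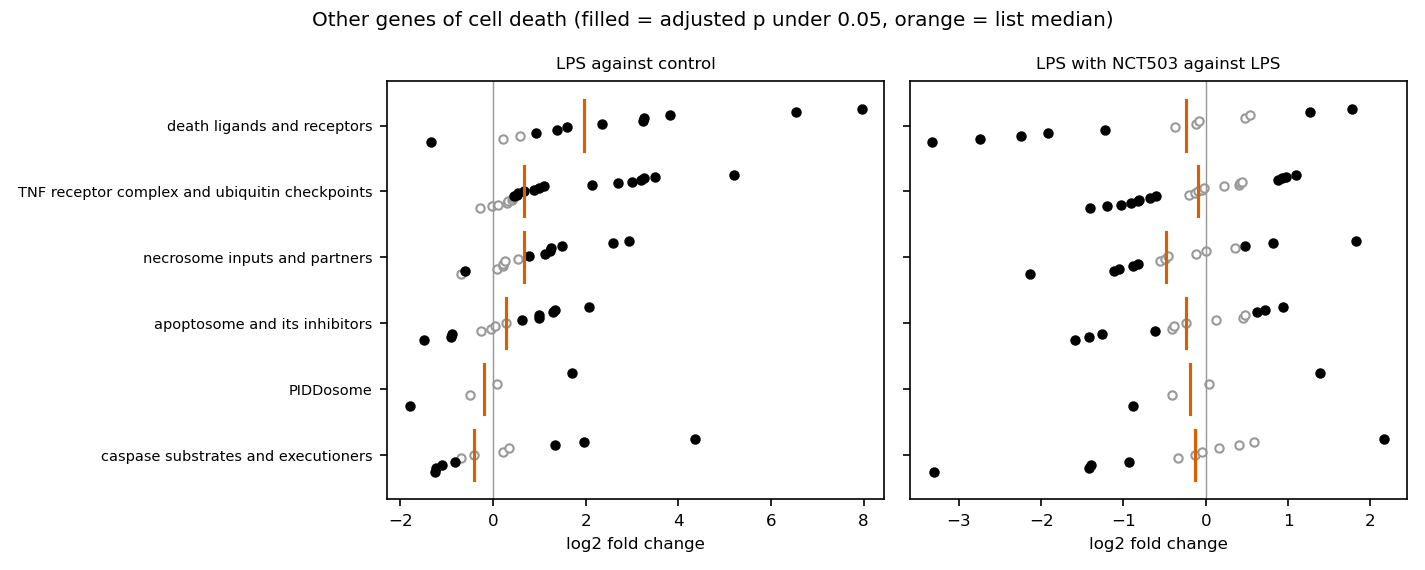
Log2 fold change (x axis) of each gene of 6 pathway lists for LPS against control and for LPS with NCT503 against LPS; filled points passed an adjusted p of 0.05 and the orange line is the list's median. Death ligands and receptors lie mostly right of 0 with LPS (median 1.98), and their median with NCT503 is -0.25.

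Upstream of caspase-8 and RIPK1, 9 of 12 death ligands and receptors rose with LPS and 1 fell (median 1.98), and with NCT503 2 rose and 5 fell (median -0.25). The 2 became 4 under CPM scaling and without the second LPS library. Tnfrsf1a, TNF receptor 1 itself, was chosen after its values were seen: it rose by 1.39 ± 0.17 with LPS and fell with NCT503 (-1.92 ± 0.18, limma adjusted p = 1.66e-05). The other genes of the list that fell with NCT503 were Fasl, Tnfsf10, Tnfrsf25 and Ltbr, and those that rose were Tnfrsf10b and Tnfrsf12a. Tnf, the ligand of TNF receptor 1, rose by 7.96 ± 0.18 on the log2 scale with LPS, and its value with NCT503 (0.47 ± 0.20, limma adjusted p = 0.0905) missed the threshold but passed it under CPM scaling (0.72) and quantile normalization (0.79), and without the second LPS or the second NCT503 library (0.61 each). Lta, lymphotoxin, rose by 6.55, and Tnfrsf1b, TNF receptor 2, by 3.27. Tnfsf12, which encodes TWEAK, was the gene that fell (-1.33). For the TNF receptor complex and its ubiquitin checkpoints, 14 of 21 genes rose with LPS and 0 fell (median 0.67). Under CPM scaling these were 7 and 3 with a median of -0.04. With NCT503 4 rose and 8 fell (median -0.09; 0.15 under CPM scaling and 0.03 under quantile normalization). The count higher was 7 without the second NCT503 library. The count lower was 4 without the third NCT503 library and 5 under CPM scaling and without the first NCT503, the second LPS or the third LPS library. Tnfaip3, which encodes the ubiquitin editor A20, rose by 5.20, Tnip1, its partner, by 3.49 and Traf2, an adaptor, by 2.69. With NCT503 Tnip1 (-1.20) and Traf2 (-1.02) fell, and Tnfaip3 stood at 0.43 ± 0.26 (limma adjusted p = 0.227), called at 0.74 under quantile normalization and at 0.77 without the second NCT503 library.

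Cflar and Fadd encode proteins that bind caspase-8 itself. Cflar, which encodes the caspase-8 regulator cFLIP, rose by 3.19 ± 0.19 with LPS. It had 1944, 1592 and 1356 normalized reads in control, 18194, 12376 and 14150 with LPS and 26849, 12507 and 21782 with NCT503. With NCT503 its libraries overlapped those with LPS (0.40 ± 0.27, limma adjusted p = 0.273; called at 0.78 under quantile normalization and 0.72 without the second NCT503 library). Fadd, the adaptor that recruits caspase-8, had 374, 461 and 522 in control, 392, 607 and 468 with LPS and 414, 433 and 409 with NCT503, and passed the test in no comparison. Its log2 fold change was 0.11 with LPS (-0.59 and called under CPM scaling) and -0.20 with NCT503 relative to LPS (0.04 under CPM scaling), and its overlapping antisense gene Faddos makes these values uncertain.

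Of the 14 necrosome inputs and partners, 7 rose and 1 fell with LPS (median 0.66; 5, 6 and -0.02 under CPM scaling), and 3 rose and 5 fell with NCT503 (median -0.48). The 1 that fell with LPS became 0 without the second LPS or the second control library and 2 without the first LPS library. The 2 adaptors that can activate RIPK3 without TNF moved in opposite directions with NCT503. Zbp1, the sensor of Z-form nucleic acids, rose by 2.94 ± 0.15 with LPS and fell with NCT503 (-1.11 ± 0.21, limma adjusted p = 0.00202). Ticam1, which encodes the Toll-like receptor adaptor TRIF, had 642, 802 and 807 normalized reads in control, 1549, 2096 and 1661 with LPS and 3111, 2749 and 3442 with NCT503. It rose in both steps, by 1.24 ± 0.17 with LPS and by a further 0.82 ± 0.18 with NCT503 (limma adjusted p = 0.00523). Tlr3, the receptor of double-stranded RNA that signals through TRIF, rose by 2.60 and fell with NCT503 (-2.13). Adar, an RNA editing enzyme that limits ZBP1 activation, rose by 1.49, and Aurka, a mitotic kinase reported to bind RIPK1 and RIPK3, was the gene of the list that fell with LPS (-0.60, limma adjusted p = 0.0317) and fell again with NCT503 (-1.06). The Aurka call with LPS was lost under quantile normalization (-0.32) and without LPS 2 (-0.51), control 2 (-0.58) or control 3 (-0.52).

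Around the apoptosome, 6 of 13 genes rose and 3 fell with LPS (median 0.28; 3, 6 and -0.42 under CPM scaling), and 3 rose and 4 fell with NCT503 (median -0.24; 0.01 under CPM scaling and 0.02 under quantile normalization). The 3 that rose with NCT503 became 0 without LPS 2, LPS 3, NCT503 library 1 or NCT503 library 3. Cycs, cytochrome c, rose by 2.07 and fell with NCT503 (-1.59), and Bak1, a pore-forming protein of the outer mitochondrial membrane, rose by 1.29 and fell (-1.41). Hspa8, a chaperone, rose by 1.33 with LPS and by 0.62 with NCT503. For Hspa8 the call with LPS was lost under quantile normalization (0.21), and that with NCT503 without LPS 2 (0.41), LPS 3 (0.66), NCT503 library 1 (0.61) or NCT503 library 3 (0.53). The PIDDosome list had 4 genes tested, of which 1 rose and 1 fell in LPS against control (median -0.20) and likewise with NCT503 (median -0.19; 0.05 under CPM scaling), a list too short to set against the shares over all genes. Under CPM scaling the 1 lower with LPS became 3 (median -0.90), and the 1 lower with NCT503 became 2 without the second NCT503 library. Cradd, the adaptor that joins caspase-2 to the platform, fell with LPS (-1.80). Pidd1, the platform protein, fell with NCT503 (-0.89 ± 0.30, limma adjusted p = 0.0407, lost under CPM scaling at -0.65, in DESeq2 at -0.90 and without any 1 of LPS 1, LPS 2, LPS 3, NCT503 library 1 or NCT503 library 3, at -1.01 to -0.71). Mdm2, an inhibitor of p53 that caspase-2 cleaves, rose with LPS by 1.70 and with NCT503 by 1.39. Of 11 caspase substrates and executioners, 3 rose and 4 fell with LPS (median -0.42). Those that fell with LPS were 6 under TMM scaling (median -0.52) and 6 under CPM scaling (median -1.12). With NCT503 1 rose and 4 fell (median -0.13, and 0.12 under CPM scaling). Gsdmd, the pore-forming gasdermin D, rose by 1.96 and fell (-1.42). Xkr8, a scramblase that exposes phosphatidylserine, rose by 4.35 and fell (-3.30). Panx1, a channel opened by caspase cleavage, rose with NCT503, by 2.17, and was alone in the list in doing so, with 2 genes higher under CPM scaling and quantile normalization and without the first LPS or second NCT503 library. It had 665, 876 and 905 normalized reads in control, 506, 720.0 and 599 with LPS and 2408, 3327 and 2483 with NCT503, where the last group lay above all other libraries. Exons of Adar, Bak1, Cradd, Hspa8, Tlr3 and Tnfsf12 also overlap those of other genes, so these values may include reads of their neighbours.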

How the data were processed

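Reads were aligned with TopHat2 to mm10, per the submitters' processing notes. Which counter, annotation and strand setting were used is not given in the sources used here. In all, the authors deposited 2 tables, for LPS against control and for LPS with NCT503 against LPS, with a signal per library. Per the file headers these tables also hold the authors' log2 fold change and their p-value with its adjusted form. The deposited signal was the read count divided by a size factor: in all 12 library columns 100% of values were whole reads (tolerance 0.001). The LPS reads were equal in both tables (21434 genes in common). All 9 libraries were therefore put on 1 scale, which served for the levels and the third comparison, LPS with NCT503 against control.

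The main test was limma-trend (limma 3.58.1 under R 4.3.3, with a robust, trended eBayes step), applied to log2(normalized reads + 1) for every gene whose mean reached 1 in either group. Adjustment was by Benjamini-Hochberg over all genes tested, and 0.05 was the threshold. The first 2 comparisons used the deposited scale. A fold change on this scale understates that of genes with few reads. The alternatives were TMM, CPM and quantile scaling, a pseudocount of 0.1, no filter and a minimum mean of 10, edgeR 4.0.16 and DESeq2 1.42.0 on the recovered counts, all 9 libraries in 1 fit, a replicate block, a 2-fold minimum and each library left out.

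The genes, the lists and the ratios were chosen with earlier results of these data known. The text names all 8 genes, the 3 called genes of smallest adjusted p in each pathway list in either of the first 2 comparisons and any gene alone in its direction, 6 fixed genes (Tnf, Fadd, Cflar, Zbp1, Ticam1, Phgdh) and the 2 most alike genes by Pearson's r. Some other genes that the rule would name are not reported here. Promoters are from RefSeq (GRCm38.p6), matched by symbol for all 8 genes, and exon overlaps from GENCODE M21.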

Additional observations from a re-analysis of the deposited data

How the results depend on the processing

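Over the 8 genes, leaving aside the 2-fold minimum, 356 of the alternative values kept their direction and side of the threshold. With the sign kept, 8 lost and 4 gained a call. Another 16 changed sign, 1 of them (Ripk3 for LPS against control under CPM) with a call. For LPS against control, CPM scaling left 1 gene higher and 4 lower in place of 3 and 1, and a 2-fold minimum left 1 higher (Mlkl). With each library left out in turn, the count higher for LPS with NCT503 against control was 1 to 2, the value of 2 without LPS with NCT503 replicate 2. The cause of these changes was not tested.

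These log2 fold changes took the opposite sign. For LPS against control they were Ripk1 under TMM (-0.02), CPM (-0.62) and quantile scaling (-0.22) and without LPS 1 (-0.09; 0.26 at the other end, without LPS 2), Ripk3 under CPM (-0.39), and Fadd under CPM (-0.59), without LPS 2 (-0.06) and without control 1 (-0.03), up to 0.25 without LPS 1. For LPS with NCT503 against LPS they were, under CPM, Casp6 (0.17), Ripk3 (0.17), Fadd (0.04) and Lta (0.16), with Lta also at 0.08 in edgeR and 0.04 in DESeq2 and Cradd at -0.23 under quantile normalization. Without NCT503 library 2 Mlkl was at 0.02, Cradd at -0.19 and Lta at 0.37, without NCT503 library 1 Ripk3 was at 0.07, and without LPS 2 Cradd was at -0.03 and Lta at 0.06. The other ends of these ranges were -0.47 for Mlkl, 0.19 for Cradd and -0.41 for Lta without NCT503 library 1, and -0.25 for Ripk3 without NCT503 library 2. For LPS with NCT503 against control they were Apaf1 under TMM (-0.03), CPM (-0.40) and quantile scaling (-0.12), without control 3 (-0.02) and without NCT503 library 1 (-0.18; 0.31 without NCT503 library 2), and Ripk1 (-0.09) and Ripk3 (-0.22) under CPM.

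Deviations from the group mean were correlated between libraries of different groups. For LPS and control, r was 0.111, 0.0247 and 0.00851 for the same replicate number and -0.187 to 0.189 for unlike numbers. For LPS with NCT503 and LPS it was 0.195, 0.178 and -0.038 for the same number and -0.258 to 0.133 for unlike numbers. For LPS with NCT503 and control it was 0.0201, -0.0996 and -0.0977 against -0.104 to 0.16. Replicates 1 and 2 of LPS with NCT503 and LPS were thus above every unlike pair, which held in neither other comparison. Whether the numbers mark a pairing was not tested. The replicate block left the calls among the 8 genes at 3 higher and 1 lower, 0 and 4, and 1 and 3, and moved those over all genes from 8355 to 9714, 6449 to 8186 and 8061 to 8098. With it Casp4 was called lower for LPS with NCT503 against LPS (-0.42, limma adjusted p = 0.0418), and the necrosome inputs called lower there went from 5 to 8. With 3 libraries a group, changes of the size seen for Ripk1 or Ripk3 may go undetected.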
